A study of Mus musculus with 12 samples.

Results

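The genes of vesicle release and of the SNARE machinery were described in 12 polyadenylated RNA libraries of mouse brain and skull after ischemic injury. The members were taken by symbol: every synaptotagmin (Syt), syntaxin (Stx), VAMP, Snap, complexin (Cplx), synapsin (Syn), Sv2, Rab3, RIM (Rims), Unc13 and syntaxin-binding (Stxbp) gene of the count table, which gave 71 of its 22317 symbols. Of these, 35 were grouped from general knowledge as mainly neuronal and 27 as widely expressed, and 9 were placed in neither class. All mice were wild-type male BALB/c animals of 8 weeks. Photothrombosis (PT) blocked local vessels by illuminating the dye Rose Bengal with a laser through an optically cleared skull window. The groups held 3 libraries each. SB2 and SB4 are labelled as brain cortex on day 2 and day 4 after PT of the skull, and BS2 and BS6 as interparietal bone on day 2 and day 6 after PT of the brain. Uninjured controls were not analysed here, so a difference between days is not a difference from an uninjured tissue. The study describes its 3 libraries per condition as biological replicates, while the labels do not say which animals they came from, so p-values measure the spread between these libraries.

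Vesicles fuse when a VAMP on the vesicle zips together with a syntaxin and a Snap protein on the target membrane. Syntaxin-binding proteins hold and guide the syntaxin, Unc13 proteins prime the vesicle, complexins clamp or assist the assembled SNARE complex, and synaptotagmins sense calcium. Rab3 and RIM proteins bring the vesicle to the release site, synapsins tether the vesicle pool, and Sv2 proteins sit in the vesicle membrane. Neurons use a dedicated set of paralogs for transmitter release, whereas related genes serve traffic through the Golgi apparatus, endosomes and lysosomes in most cells, and granule secretion in blood cells.

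Promoter sequence was read for the members from RefSeq windows of 300 bases on GRCm38.p6, covering 250 bases before and 50 bases from each annotated start. A window was held for 54 of 71 members (23 neuronal, 23 widely expressed and 8 others), with 70 windows in all. The letters of both half-sites of RE1, the element bound by the neuronal gene repressor REST, were searched on both strands together with the cAMP response element (CRE) and the GC box. The left half-site TTCAGCACC occurred in 0.371% of all 32851 windows and in the members Syn1 and Unc13a. The right half-site GGACAGCGC occurred in 0.405% of windows and in Unc13a alone among the members, 8 bases from its left half-site and on the same strand as it. The CRE letters TGACGTCA were in 1.79% of windows and in Syn1 and Stxbp3. The GC box GGGCGG was in 35.7% of all windows and in 46 of the 70 member windows. Counted by gene it was in 42 of 54 members, which were 19 of 23 neuronal, 18 of 23 widely expressed and 5 of 8 others. A gene with several windows has more chances of a match. The share by gene over all genes is not given, so these counts are not set against the 35.7%. These matches describe exact letters only. A half-site with any differing base was not searched for, so the search does not show that Syn1 lacks a right half-site. Whether the spacing of the half-sites in Unc13a suits REST binding was not tested. The windows with an RE1 half-site or a CRE follow with those letters in capitals, beside that of Snap23, a widely expressed gene without them. None of the printed motifs overlapped another. Each is written in the direction of its gene, so motif letters on the opposite strand appear as their reverse complement.
Syn1 (chrX:20920869-20921168, minus strand): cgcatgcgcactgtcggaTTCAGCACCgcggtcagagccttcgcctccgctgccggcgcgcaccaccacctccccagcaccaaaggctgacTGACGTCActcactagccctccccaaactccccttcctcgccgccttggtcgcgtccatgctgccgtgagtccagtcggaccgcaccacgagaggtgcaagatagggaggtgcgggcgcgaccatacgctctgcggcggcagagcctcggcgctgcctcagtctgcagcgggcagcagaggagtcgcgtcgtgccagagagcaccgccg
Unc13a (chr8:71671708-71672007, minus strand): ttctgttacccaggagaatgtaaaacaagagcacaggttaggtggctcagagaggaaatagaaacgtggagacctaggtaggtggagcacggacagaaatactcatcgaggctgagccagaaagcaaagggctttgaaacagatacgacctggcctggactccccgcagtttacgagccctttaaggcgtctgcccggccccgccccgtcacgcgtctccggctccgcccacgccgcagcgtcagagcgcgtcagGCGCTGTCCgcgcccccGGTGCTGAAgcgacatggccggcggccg
Stxbp3 (chr3:108840453-108840752, minus strand): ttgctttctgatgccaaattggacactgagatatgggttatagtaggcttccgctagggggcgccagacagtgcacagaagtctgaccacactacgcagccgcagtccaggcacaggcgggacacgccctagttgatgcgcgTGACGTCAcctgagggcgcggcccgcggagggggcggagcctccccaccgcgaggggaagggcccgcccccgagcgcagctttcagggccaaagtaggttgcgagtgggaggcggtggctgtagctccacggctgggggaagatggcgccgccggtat
Snap23 (chr2:120567421-120567720, plus strand): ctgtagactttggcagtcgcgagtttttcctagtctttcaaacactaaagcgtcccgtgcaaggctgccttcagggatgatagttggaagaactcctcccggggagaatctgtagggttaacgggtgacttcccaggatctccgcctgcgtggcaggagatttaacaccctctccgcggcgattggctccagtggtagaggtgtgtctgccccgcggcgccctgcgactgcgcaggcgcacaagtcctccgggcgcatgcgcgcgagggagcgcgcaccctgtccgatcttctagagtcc

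The labels of SB2 and BS2 did not match the tissue transcripts in them. The bone collagen gene Col1a1 was at 33760, 33530 and 36680 CPM (counts relative to library size, scaled by TMM) in SB2 and 54060, 18020 and 76620 CPM in BS6, against 3.89, 9.41 and 8.64 CPM in BS2 and 2.55, 2.99 and 4.01 CPM in SB4. The 12 neuron markers summed to 239 to 270 CPM in SB2 and 185 to 229 CPM in BS6, against 8750 to 9130 CPM in BS2 and 9200 to 9850 CPM in SB4. Libraries labelled brain on day 2 thus carried bone transcripts, and libraries labelled bone on day 2 carried brain transcripts. SB2 and BS6 are called here the libraries with bone transcripts, and BS2 and SB4 the libraries with brain transcripts. In both comparisons over time, day and tissue transcripts cannot be told apart. Total counts ran from 14126082 to 18972654 per library, and in this bulk material fewer cells of a type and less RNA per cell cannot be told apart either.

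In the libraries labelled SB, most of the neuronal release machinery was higher on day 4 than on day 2, and in the libraries labelled BS most of it was lower on day 6 than on day 2. Calls rest on edgeR, with Benjamini-Hochberg adjustment over all genes tested to keep adjusted p below 0.05, and on a change of more than 1 log2 unit in either direction. Of 34 neuronal members tested in SB4 against SB2, 32 were called higher and 1 lower, with a median log2 fold change of 5.78. Over all 17293 genes tested, 27.8% were called higher and 28.6% lower, with a median of -0.02. Among the 27 widely expressed members, 5 were called higher, 10 lower and 12 neither, with a median of -0.30. The 8 other members tested gave 6 higher and 2 lower.

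In BS6 against BS2 the classes parted in the opposite direction. Of 35 neuronal members, 32 were called lower and 1 higher, with a median log2 fold change of -5.15, whereas 29% of all 17311 genes tested were called higher and 26.5% lower. The 27 widely expressed members gave 12 higher, 6 lower and 9 neither, with a median of 0.45, and the 8 others gave 2 higher and 6 lower. These comparisons share no library. All 43 members called higher in SB4 than in SB2 were called lower in BS6 than in BS2, and 12 of the 13 called lower in SB4 were called higher in BS6. The exception was Syt9, which was not called in BS6 against BS2. The matching overlap over all genes is not given here, so this overlap is not read as particular to the members.

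**Figure D1:**
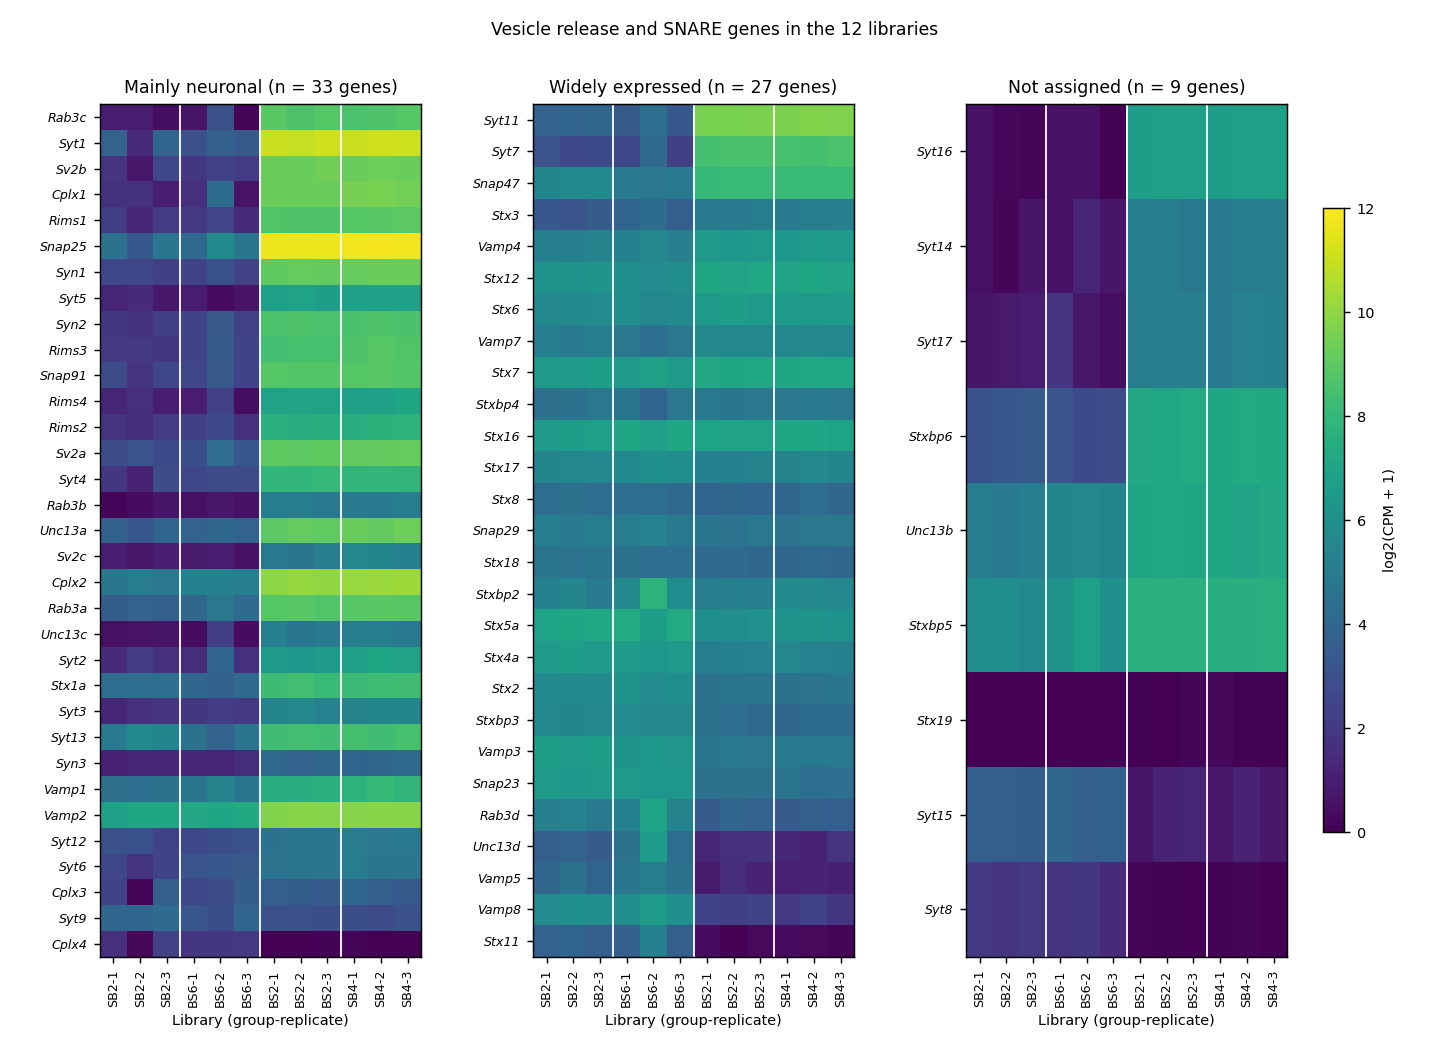
Heat map of log2(CPM + 1) for 69 of the 71 members (rows, in panels by class) in the 12 libraries (columns, named group-replicate), each panel ordered from genes higher in the libraries with brain transcripts to genes higher in those with bone transcripts. Most neuronal rows were bright in BS2 and SB4 and dark in SB2 and BS6, while most widely expressed rows changed far less.

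**Figure D2:**
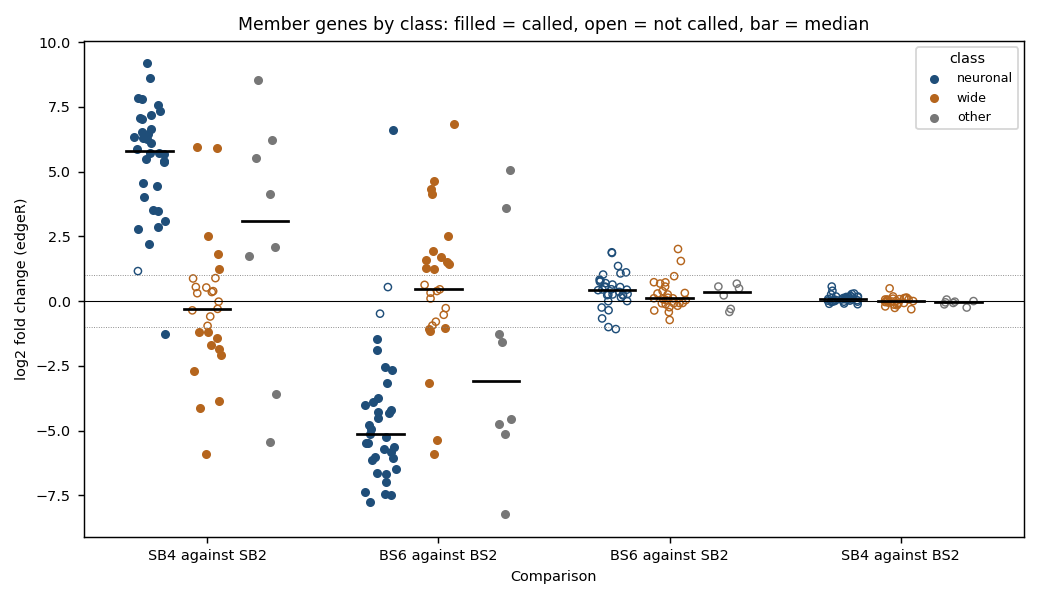
Log2 fold change (vertical axis, edgeR) of each member tested in the 4 comparisons, by class, with filled points for called genes, open points for the rest, dotted lines at 1 and -1, and bars at the class median. Neuronal medians were 5.78 in SB4 against SB2 and -5.15 in BS6 against BS2, and no member was called in the comparisons of BS6 with SB2 or of SB4 with BS2.

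Snap25, the target-membrane SNARE of synapses (mm10 chr2:136713453-136782428, GENCODE M21), had the highest mean level per kilobase of exon in BS2 and in SB4 among the members ranked, those reported by name with an annotated exon length. Snap25 was at 21.8, 8.92 and 24.8 CPM in SB2 and 16.4, 53.4 and 24.95 CPM in BS6, against 3323, 3343 and 3340 CPM in BS2 and 3461, 3617 and 3500 CPM in SB4. Every library with brain transcripts lay above every library with bone transcripts, and the lowest level of all was in SB2 replicate 2. Snap25 was called higher in SB4 than in SB2 (log2 fold change 7.57, SE 0.46, adjusted p = 2.87e-05) and was called lower in BS6 than in BS2 (-6.68, SE 0.54, adjusted p = 6.55e-05). Its widely expressed paralog Snap23 (chr2:120567671-120601255) serves secretion and surface traffic in many cells. Snap23 was at 91.2, 84.1 and 90.4 CPM in SB2 and 85.6, 78.4 and 77.5 CPM in BS6, against 21.9, 20.9 and 21.9 CPM in BS2 and 23.6, 19.5 and 19.9 CPM in SB4. The order of the groups was the reverse of that for Snap25, again without overlap. Snap23 was called lower in SB4 than in SB2 (log2 fold change -2.08, SE 0.09, adjusted p = 1.53e-09) and was called higher in BS6 than in BS2 (1.94, SE 0.09, adjusted p = 1e-05). Snap29, a broadly acting paralog of endosome and autophagosome fusion, was not called in either comparison (log2 fold changes -0.36 and 0.45). Snap47 went with the neuronal genes, with log2 fold changes of 2.52 and -3.16 and calls in both. Snap91 was taken in by its symbol but encodes a clathrin adaptor of synaptic vesicle recycling rather than a SNARE. It was called with the neuronal genes in both comparisons (6.63 and -6.15).

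Vamp2, the main vesicle SNARE of forebrain synapses, kept a larger share of its level in the libraries with bone transcripts than most neuronal members. Vamp2 was at 117, 132 and 132 CPM in SB2 and 149.8, 138 and 154 CPM in BS6, against 846, 929 and 895 CPM in BS2 and 894, 937 and 934 CPM in SB4. The groups with bone transcripts lay above 100 CPM but did not overlap those with brain transcripts. Vamp2 was called higher in SB4 than in SB2 (log2 fold change 2.87, SE 0.08, adjusted p = 3.93e-11) and was called lower in BS6 than in BS2 (-2.56, SE 0.11, adjusted p = 7.75e-06). Vamp3, the endosomal paralog of most cells, ran the other way. Vamp3 was at 103, 94.97 and 104 CPM in SB2 and 72.6, 84.6 and 74.6 CPM in BS6, against 25.6, 27.8 and 25.9 CPM in BS2 and 29.7, 27.5 and 27.5 CPM in SB4. Vamp3 was called lower in SB4 than in SB2 (log2 fold change -1.83, SE 0.07, adjusted p = 8.35e-10) and was called higher in BS6 than in BS2 (1.59, SE 0.11, adjusted p = 2.96e-05). Vamp1 is another neuronal vesicle SNARE, best known from spinal cord and motor nerve endings. Vamp1 was at 20.3, 19.8 and 21.6 CPM in SB2 and 24.2, 40.3 and 24.1 CPM in BS6, against 188, 192 and 193 CPM in BS2 and 218, 266 and 226 CPM in SB4. BS6 replicate 2 was the highest of the libraries with bone transcripts, still below every library with brain transcripts. Vamp1 was called higher in SB4 than in SB2 (log2 fold change 3.53, SE 0.09, adjusted p = 1.9e-11) and was called lower in BS6 than in BS2 (-2.65, SE 0.23, adjusted p = 9.03e-05). Vamp8 acts on late endosomes and on granules of blood and gland cells. Vamp8 was at 54.1, 65.1 and 59.9 CPM in SB2 and 58.2, 93.4 and 64.8 CPM in BS6, against 4.25, 3.91 and 4.43 CPM in BS2 and 3.05, 4.35 and 2.79 CPM in SB4. No library with brain transcripts passed 5 CPM. Vamp8 was called lower in SB4 than in SB2 (log2 fold change -4.12, SE 0.15, adjusted p = 3.06e-10) and was called higher in BS6 than in BS2 (4.14, SE 0.23, adjusted p = 1.52e-05). Vamp5, first described in muscle, moved the same way with log2 fold changes of -3.84 and 4.34, both called. Vamp4, a Golgi SNARE, was called higher in SB4 than in SB2 (1.23) and lower in BS6 than in BS2 (-1.06), and the lysosomal Vamp7 was not called in either (0.52 and -0.95).

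Stx1a, a syntaxin of the neuronal plasma membrane, was high in the libraries with brain transcripts. Stx1a was at 18.8, 18.6 and 19.8 CPM in SB2 and 14.5, 12.4 and 17.3 CPM in BS6, against 299, 330 and 276 CPM in BS2 and 292, 306 and 322 CPM in SB4. The groups did not overlap, and the SB2 mean was 6.21% of the SB4 mean. Stx1a was called higher in SB4 than in SB2 (log2 fold change 4.01, SE 0.08, adjusted p = 2.28e-12) and was called lower in BS6 than in BS2 (-4.32, SE 0.16, adjusted p = 4.89e-06). The plasma membrane paralogs of other cells were set beside it, first Stx2. Stx2 was at 51.95, 52.8 and 52.02 CPM in SB2 and 69.97, 53.6 and 61.6 CPM in BS6, against 21.1, 23.4 and 23.2 CPM in BS2 and 21.6, 22.5 and 24.8 CPM in SB4. Stx2 was called lower in SB4 than in SB2 (log2 fold change -1.18, SE 0.08, adjusted p = 9.79e-08) and was called higher in BS6 than in BS2 (1.49, SE 0.13, adjusted p = 7.82e-05). Stx4a, which serves regulated exocytosis in muscle, fat and blood cells, had the same order. Stx4a was at 89.9, 102 and 89.6 CPM in SB2 and 96.8, 79.6 and 88.01 CPM in BS6, against 34.9, 37.5 and 38.5 CPM in BS2 and 45.8, 38.7 and 37.8 CPM in SB4. Stx4a was called lower in SB4 than in SB2 (log2 fold change -1.20, SE 0.09, adjusted p = 2.11e-07) and was called higher in BS6 than in BS2 (1.29, SE 0.10, adjusted p = 6.3e-05). Stx3, found in polarized epithelia and at ribbon synapses, was lower in the libraries with bone transcripts. Stx3 was at 8.999, 7.86 and 10.2 CPM in SB2 and 13.4, 18.1 and 11.1 CPM in BS6, against 28.96, 29.8 and 31.96 CPM in BS2 and 29.2, 31.8 and 34.6 CPM in SB4. Stx3 was called higher in SB4 than in SB2 (log2 fold change 1.82, SE 0.12, adjusted p = 5.77e-08) and was called lower in BS6 than in BS2 (-1.05, SE 0.20, adjusted p = 0.00283). Its call in BS6 against BS2 lay at the fold threshold, and the log2 fold change was -0.999 without BS6 replicate 1 and -0.89 without BS6 replicate 3, neither of them called.

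Stx11, a syntaxin of cytotoxic lymphocytes and platelets, was close to absent from the libraries with brain transcripts. Stx11 was at 12.6, 13.4 and 11.1 CPM in SB2 and 11.7, 37.4 and 11.5 CPM in BS6, against 0.295, 0 and 0.218 CPM in BS2 and 0.284, 0.218 and 0.111 CPM in SB4. The 3 SB2 libraries held 605 counts against 10 in SB4, a ratio of 62.3 after scaling to library size, with an exact 95% interval of 33.7 to 131, and BS6 held 978 against 8 in BS2, a ratio of 119 (60.2 to 276). These intervals cover counting error only. The BS6 sum drew mostly on replicate 2. The remaining syntaxins act in the Golgi apparatus, the endoplasmic reticulum, endosomes or autophagosomes. Of these, Stx6, Stx7, Stx8, Stx16, Stx17 and Stx18 were not called in either comparison, with log2 fold changes between -0.60 and 0.89 in SB4 against SB2 and between -0.80 and 0.63 in BS6 against BS2. Stx5a, the Golgi syntaxin, had log2 fold changes of -0.96 and 1.22 and was called in BS6 only. Stx12 had 0.87 and -1.14 and was likewise called only in BS6 against BS2, where it was lower. Stx19 held at most 3 counts in any library and was not tested.

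Among the syntaxin-binding genes, Stxbp3, which acts in insulin-regulated and other secretion, was higher with bone transcripts. Stxbp3 was at 49.9, 43.7 and 46.9 CPM in SB2 and 53.6, 46.2 and 49.5 CPM in BS6, against 22.2, 18.4 and 16.7 CPM in BS2 and 15.9, 17.99 and 18.1 CPM in SB4. No values overlapped between the library types. Stxbp3 was called lower in SB4 than in SB2 (log2 fold change -1.43, SE 0.09, adjusted p = 5.04e-08) and was called higher in BS6 than in BS2 (1.42, SE 0.14, adjusted p = 0.00016). Stxbp2 partners Stx11 in the granule release of blood cells. Stxbp2 was at 38.1, 43.2 and 30.8 CPM in SB2 and 48.8, 218 and 55.6 CPM in BS6, against 31.97, 36.9 and 33.7 CPM in BS2 and 50.3, 49.7 and 45.7 CPM in SB4. BS6 replicate 2 stood apart at 4.17 times the mean of the other BS6 libraries. Stxbp2 was not called in SB4 against SB2 (log2 fold change 0.38, SE 0.11, adjusted p = 0.00835) and was called higher in BS6 than in BS2 (1.70, SE 0.60, adjusted p = 0.0391). Without BS6 replicate 2 the log2 fold change in BS6 against BS2 was 0.65, below the fold threshold, and without any single BS2 library the adjusted p was 0.0973 to 0.11. Stxbp5 and Stxbp6, syntaxin-binding regulators placed in neither class, were called higher in SB4 than in SB2 and lower in BS6 than in BS2 (Stxbp5 1.74 and -1.26, Stxbp6 4.13 and -4.55), and Stxbp4 was not called in either (0.30 and -0.27).

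The priming factors split by paralog as the SNAREs did. Unc13a is the main primer of excitatory synapses and holds the exact letters of both RE1 half-sites in the window printed above. Unc13a was at 12.4, 8.59 and 13.4 CPM in SB2 and 12.7, 15.2 and 13.2 CPM in BS6, against 495, 581 and 539 CPM in BS2 and 606, 547 and 643 CPM in SB4. The lowest library with brain transcripts was far above the highest with bone transcripts. Unc13a was called higher in SB4 than in SB2 (log2 fold change 5.71, SE 0.16, adjusted p = 6.64e-10) and was called lower in BS6 than in BS2 (-5.26, SE 0.15, adjusted p = 2.75e-06). Unc13d primes cytotoxic and platelet granules. Unc13d was at 11.1, 13.1 and 10.1 CPM in SB2 and 21.97, 94.5 and 19.1 CPM in BS6, against 1.36, 2.05 and 2.25 CPM in BS2 and 1.49, 1.25 and 2.51 CPM in SB4. BS6 replicate 2 was 4.6 times the mean of the other BS6 libraries, and the libraries with brain transcripts did not pass 3 CPM. Unc13d was called lower in SB4 than in SB2 (log2 fold change -2.69, SE 0.25, adjusted p = 1.24e-06) and was called higher in BS6 than in BS2 (4.63, SE 0.78, adjusted p = 0.00174). Unc13b, found in brain and in other organs and placed in neither class, moved less and with the neuronal genes (2.09 and -1.58, both called). Unc13c, the paralog of cerebellar granule cells, gave 5.86 and -4.28, both called. Its change in BS6 depended in size on replicate 2, at 3.68 CPM against 0.326 and 0.318 CPM in the other BS6 libraries.

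Rab3a, the small GTPase of synaptic vesicles, was set against Rab3d, which coats granules of gland and mast cells and is made by osteoclasts. Rab3a was at 10.5, 12.8 and 11.9 CPM in SB2 and 15.1, 26.03 and 17.1 CPM in BS6, against 461, 469 and 434 CPM in BS2 and 472, 493 and 476 CPM in SB4. Rab3a was called higher in SB4 than in SB2 (log2 fold change 5.36, SE 0.09, adjusted p = 1.42e-12) and was called lower in BS6 than in BS2 (-4.51, SE 0.25, adjusted p = 1.49e-05). Rab3d was at 36.2, 38.96 and 30.6 CPM in SB2 and 38.2, 124 and 39.8 CPM in BS6, against 9.91, 14.2 and 12.6 CPM in BS2 and 9.86, 11.3 and 10.9 CPM in SB4. Rab3d thus had the opposite order, with BS6 replicate 2 at 3.20 times the mean of the other BS6 libraries. Rab3d was called lower in SB4 than in SB2 (log2 fold change -1.71, SE 0.11, adjusted p = 6.2e-08) and was called higher in BS6 than in BS2 (2.51, SE 0.52, adjusted p = 0.00461). Rab3b and Rab3c, both neuronal here, gave log2 fold changes of 6.31 and -5.71 and of 9.18 and -7.38. The BS6 level of Rab3c came mostly from replicate 2, at 6.89 CPM against 0.652 and 0.127 CPM, so the size of its change depended on that library. In SB2, Rab3c kept 0.172% of its SB4 mean, the lowest share of the neuronal members. The active zone organizers Rims1, Rims2, Rims3 and Rims4 were all called higher in SB4 than in SB2 (6.27 to 7.35) and lower in BS6 than in BS2 (-7.00 to -5.62).

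Among the calcium sensors, Syt1 drives fast synchronous release in forebrain neurons. Syt1 was at 12.99, 1.798 and 13.98 CPM in SB2 and 6.98, 11.9 and 9.48 CPM in BS6, against 2076, 1968 and 2209 CPM in BS2 and 2093, 2259 and 2163 CPM in SB4. SB2 replicate 2 was at 0.133 times the mean of the other SB2 libraries. Syt1 was called higher in SB4 than in SB2 (log2 fold change 7.81, SE 0.77, adjusted p = 0.000531) and was called lower in BS6 than in BS2 (-7.74, SE 0.28, adjusted p = 4.37e-06). Syt11, which binds no calcium and is expressed in many tissues, had been grouped as widely expressed but did not behave like the other members of that class. Syt11 was at 12.6, 14.2 and 14.6 CPM in SB2 and 9.72, 19.7 and 9.04 CPM in BS6, against 779.9, 773 and 793 CPM in BS2 and 798, 842 and 823 CPM in SB4. Syt11 was called higher in SB4 than in SB2 (log2 fold change 5.90, SE 0.09, adjusted p = 1.02e-12) and was called lower in BS6 than in BS2 (-5.89, SE 0.38, adjusted p = 2.78e-05). Syt7, a slow sensor of synapses, lysosomes and endocrine cells, was another such case, with log2 fold changes of 5.95 and -5.37 and 1.61% of its SB4 mean left in SB2. The neuronal members Syt2, Syt3, Syt4, Syt5, Syt6, Syt12 and Syt13 were all called higher in SB4 than in SB2 (2.20 to 6.54) and lower in BS6 than in BS2 (-7.44 to -1.48). Syt14, Syt16 and Syt17, placed in neither class, followed them (5.52 to 8.52 and -8.22 to -4.75).

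Syt8 and Syt15 had the reverse order. Syt8 was at 3.13, 2.597 and 2.99 CPM in SB2 and 2.61, 2.72 and 1.66 CPM in BS6, against 0.118, 0.0640 and 0 CPM in BS2 and 0.0709, 0.109 and 0 CPM in SB4. The SB2 libraries held 143 counts against 3 in SB4, a ratio of 49.1 (exact 95% interval 16.5 to 241, for counting error only). BS6 held 111 against 3 in BS2, a ratio of 36.0 (12 to 177, likewise). Syt15 was at 11.6, 11.5 and 10.8 CPM in SB2 and 15.3, 11.5 and 12.1 CPM in BS6, against 0.649, 1.28 and 1.38 CPM in BS2 and 0.709, 1.25 and 0.780 CPM in SB4. Syt15 was called lower in SB4 than in SB2 (log2 fold change -3.59, SE 0.22, adjusted p = 3.7e-08) and was called higher in BS6 than in BS2 (3.60, SE 0.31, adjusted p = 8.01e-05). Syt9 was the neuronal member called against its class in SB4 against SB2, as Cplx4 was in BS6 against BS2. Syt9 was at 14.8, 14.2 and 17.3 CPM in SB2 and 8.35, 6.34 and 14.1 CPM in BS6, against 6.901, 6.98 and 6.39 CPM in BS2 and 6.38, 5.65 and 6.85 CPM in SB4. SB2 lay above all libraries with brain transcripts, while BS6 overlapped BS2. Syt9 was called lower in SB4 than in SB2 (log2 fold change -1.29, SE 0.14, adjusted p = 6.12e-06) and was not called in BS6 against BS2 (0.54, SE 0.30, adjusted p = 0.145).

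The complexins split within the family. Cplx1 and Cplx2, the forms of brain synapses, were called higher in SB4 than in SB2 (8.61 and 5.41) and lower in BS6 than in BS2 (-6.48 and -4.79). The size of the Cplx1 change in BS6 depended on replicate 2, at 18.06 CPM against 2.02 and 0.573 CPM in the other BS6 libraries. Cplx3 and Cplx4 are the forms of retinal ribbon synapses. Cplx3 was at 4.39, 0.133 and 11.6 CPM in SB2 and 5.15, 6.04 and 10.8 CPM in BS6, against 11.2, 10.7 and 9.66 CPM in BS2 and 15.3, 11.6 and 9.47 CPM in SB4. SB2 replicate 2 held 2 counts of Cplx3, and SB2 replicate 3 overlapped the libraries with brain transcripts. Cplx3 was not called in SB4 against SB2 (log2 fold change 1.16, SE 1.04, adjusted p = 0.349) and was not called in BS6 against BS2 (-0.49, SE 0.29, adjusted p = 0.169). Cplx4 was at 2.11, 0.200 and 3.97 CPM in SB2 and 2.67, 2.72 and 3.12 CPM in BS6, against 0, 0 and 0.0726 CPM in BS2 and 0.142, 0 and 0 CPM in SB4. SB2 replicate 2 held 3 counts of Cplx4, fewer than the other libraries with bone transcripts. Cplx4 summed to 105 counts in SB2 against 2 in SB4, a ratio of 54.1 (exact 95% interval 14.6 to 453), and to 135 in BS6 against 1 in BS2, a ratio of 131 (23.2 to 5230). These intervals leave out the spread between libraries, and the SB2 libraries held 37, 3 and 65 counts. The gene was not tested in SB4 against SB2 and was called higher in BS6 than in BS2 (adjusted p = 9.52e-05).

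The vesicle proteins followed the neuronal pattern. Syn1, Syn2 and Syn3, and Sv2a, Sv2b and Sv2c, were all called higher in SB4 than in SB2 (3.46 to 7.84) and lower in BS6 than in BS2 (-7.48 to -3.15). Syn1 was at 4.84, 4.795 and 3.91 CPM in SB2 and 4.56, 7.13 and 4.14 CPM in BS6, against 525, 564 and 546 CPM in BS2 and 568, 610.4 and 613 CPM in SB4. Syn1, whose window above holds the exact letters of the left RE1 half-site and of a CRE, kept 0.756% of its SB4 mean in SB2. It kept 0.968% of its BS2 mean in BS6. Syn3 had the smallest changes of the 6 genes (3.46 and -3.15).

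How much of each gene was left in the libraries with bone transcripts differed between the classes in its median, with overlap. For the neuronal members the SB2 mean was a median of 1.91% of the SB4 mean, with 10 of 35 under 1%, 18 between 1% and 10%, 5 between 10% and 100% and 2 above it. The BS6 mean was a median of 2.70% of the BS2 mean. For the widely expressed members the medians were 124% and 133%. Of these 27, the SB2 mean was at or above the SB4 mean for 15, between 10% and 100% of it for 10, and at 1.61% for Syt7 and 1.68% for Syt11, below the median of the neuronal members. The neuronal members above 100% were Cplx4 and Syt9. Summed over the 35 neuronal members, the libraries with bone transcripts held 408 to 591 CPM and those with brain transcripts 16000 to 17560 CPM. Summed over the 27 widely expressed members the range was 1275 to 1672 CPM against 2411 to 2551 CPM. Syt11, Syt7 and Snap47, the 3 with the highest SB4 means (821, 366 and 278 CPM), carried the direction of this sum: over the other 24 it was 1211 to 1610 CPM against 1011 to 1082 CPM. The part of nerves in the neuronal transcripts of bone was not tested: peripheral neuron markers (4 found) summed to 1.76 to 3.46 CPM in the libraries with bone transcripts and 7.94 to 10.2 CPM in those with brain transcripts, and Schwann cell markers (4 found) to 28.5 to 104 CPM and 16.5 to 19.5 CPM.

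Per kilobase of merged exon (GENCODE M21, 70 of 71 members annotated), the order of mean levels of the members reported by name, without Vamp7, which had no annotated length, was alike at the top in both groups with brain transcripts. In SB4 it ran Snap25 519.3, Cplx1 338.3, Syt1 260.5, Vamp2 242.0, Cplx2 236.1, Rab3a 215.9 and Syn1 181.0 CPM per kilobase, and the same 7 genes led BS2 in the same order. In SB2 the leading levels were those of Stx4a (39.7), Vamp3 (34.8), Vamp2 (33.3), Stx16 (25.9) and Vamp8 (25.8), and in BS6 those of Vamp2 (38.6), Stx4a (37.3), Stx16 (31.8), Vamp8 (31.2) and Vamp3 (26.7). Vamp2 was the only member of the neuronal class among the 8 highest in SB2 and in BS6.

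The balance between paralogs was read within each library as the log2 ratio of a neuronal gene to a widely expressed one (CPM + 0.1), which needs no scaling between libraries. For all 7 pairs, every library with brain transcripts had a higher ratio than every library with bone transcripts. The pairs were chosen with earlier results of these data known. The share of other gene pairs with this order is not given, so the order is described only. The ratio of Snap25 to Snap23 was -2.38 ± 0.74 (SD, n = 3) in SB2 and 7.39 ± 0.17 in SB4, and it was 7.27 ± 0.04 in BS2 and -1.52 ± 0.92 in BS6. For Unc13a to Unc13d the means were -0.01 in SB2, 8.40 in SB4, 8.11 in BS2 and -1.31 in BS6, and for Vamp1 to Vamp8 they were -1.53, 6.10, 5.48 and -1.30. The smallest differences were those of Stx1a to Stx3 (2.19 in SB4 against SB2, -3.24 in BS6 against BS2) and Syt1 to Syt11 (2.38 and -1.79), the pairs whose widely expressed gene followed the neuronal one. The Syt1 to Syt11 ratio in SB2 was 0.04, -2.91 and -0.06 (SD 1.68), and without SB2 replicate 2 the difference from SB4 was 1.41 instead of 2.38. The differences for the other pairs ran from 4.69 to 9.77 and from -9.42 to -4.14. In a two-sided exact permutation test, 3 libraries against 3 cannot give a p below 0.1, and each of the 14 differences had p = 0.1, which stayed 0.1 after Benjamini-Hochberg adjustment.

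**Figure D3:**
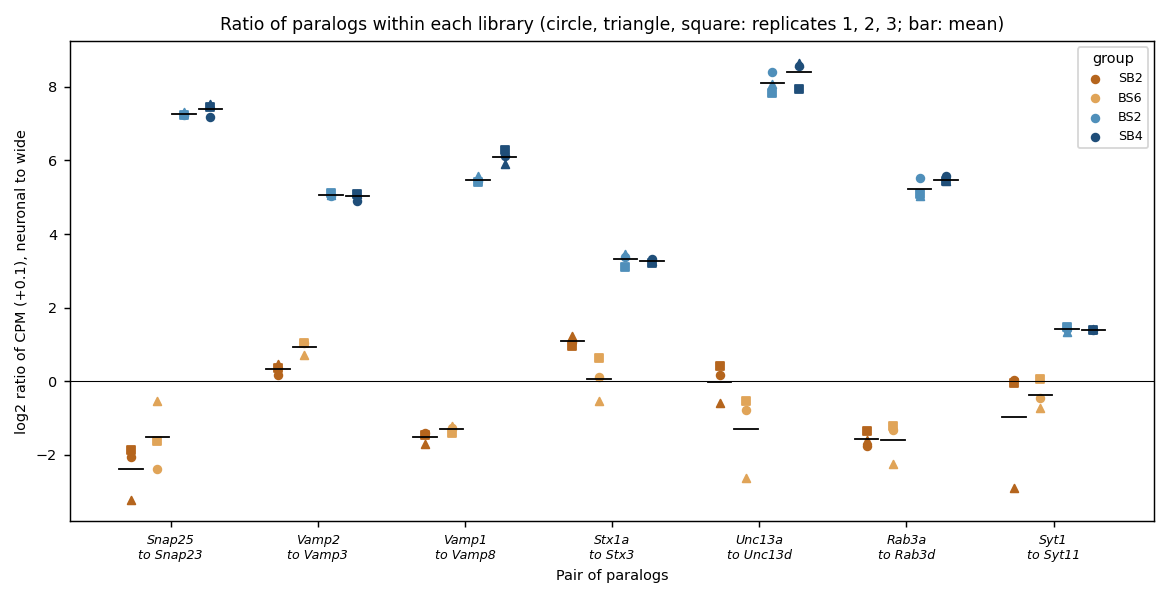
Log2 ratio of CPM (each with 0.1 added) of a neuronal to a widely expressed paralog in each library (points, with the shape giving the replicate) for 7 pairs, with bars at the mean of 3 libraries. Ratios are per gene and not per length, so only differences between groups are read, and BS2 and SB4 lie above SB2 and BS6 for every pair.

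A test of the difference between both changes over time, fitted over all 12 libraries, gave 47 of 70 members with a higher change in SB (SB4 minus SB2) than in BS (BS6 minus BS2) and 15 with a lower change. Over all 18068 genes tested, 35.8% were called higher and 37.8% lower. The neuronal members gave 32 higher and 2 lower of 35, and the widely expressed 9 higher and 11 lower of 27.

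Single libraries stood apart in the groups with bone transcripts. BS6 replicate 2 was the highest of the 3 BS6 libraries for 25 of 35 neuronal members, 9 of them at over 2 times the mean of the others. It was also the highest for 14 of 27 widely expressed members, 6 of them at over 2 times that mean, and for 43 of all 71. The share over all genes is not given here, so this is not read as particular to the neuronal members. The ratios to the mean of the other BS6 libraries were 17.7 for Rab3c, 13.9 for Cplx1, 11.4 for Unc13c and 6.99 for Syt2. In the same library the GABA synthesis gene Gad1 was at 25.6 CPM against 1.11 and 0 CPM, the granule cell gene Cbln3 at 14.6 CPM against 0.783 and 1.46 CPM, and Calb1 at 19.4 CPM against 0.978 and 0.0636 CPM. Other cerebellar genes were mixed. Pcp2, Cbln1, Fat2 and Car8 were at 143, 6.66, 5.19 and 4.19 times the mean of the other BS6 libraries. En2, Zic2, Neurod1 and Zic1 were at 1.25, 1.11, 0.979 and 0.781 times it, and Barhl1, Barhl2 and Pcp4 at no more than 0.483 CPM. The 13 cerebellar genes found summed to 307 CPM against 274 and 288 CPM. Of the 12 neuron markers found, 9 were above the mean of the other BS6 libraries and 3 below it (Thy1 at 0.381, Camk2a at 0.63 and Eno2 at 0.692 times that mean), and the summed level of the markers was the lowest of BS6, 185 CPM against 229 and 194 CPM. BS6 replicate 2 also held 5946 CPM of the neutrophil granule gene Ngp, against 370.8 and 1017 CPM, beside its high Stxbp2, Unc13d, Rab3d and Stx11, and only 18020 CPM of Col1a1. The 6 neutrophil lineage markers found in the table summed to 1410 to 24300 CPM over the BS6 libraries and 848 to 1520 CPM over SB2, and to at most 4.62 CPM in BS2 and SB4. Osteoclast markers (7 found) summed to 1520 to 3360 CPM in BS6, 2800 to 3090 CPM in SB2 and at most 11.1 CPM elsewhere, and those of megakaryocytes and platelets (5 found) to 213 to 363, 183 to 211 and at most 5.49 CPM. The part of these cell types in the levels of Stxbp2, Unc13d, Rab3d, Stx11 and Vamp8 was not tested.

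SB2 replicate 2 was low for some neuronal members, with 8 of 35 at under 0.5 times the mean of the other SB2 libraries. The median ratio over the 35 was 0.963, and this library was the lowest of the 3 for 17 members and the highest for 11. The ratios were 0.0167 for Cplx3, 0.0658 for Cplx4, 0.133 for Syt1, 0.198 for Sv2b and 0.383 for Snap25. The same library was low in several pineal and photoreceptor genes, which were looked at after the complexins were seen. Of 13 found, 7 (Tph1, Crx, Sag, Otx2, Neurod4, Pde6b and Gnat2) were over 5 times lower than the mean of the other SB2 libraries, with a count above 0. Others did not follow: Gngt2 was highest in this library, at 14.8 CPM against 11.1 and 11.3 CPM, Rcvrn had no count in any SB2 library, and Aanat, the melatonin synthesis gene, was at a mean of 0.32 CPM in SB2 and 0.25 CPM in BS6, below its 1.22 CPM in SB4 and 1.43 CPM in BS2. Tph1, which opens serotonin and melatonin synthesis in the pineal gland, was at 50.3, 3.33 and 101 CPM in SB2, and the photoreceptor and pineal factor Crx at 7.12, 0.400 and 9.52 CPM. In BS6 these genes were at 61.5, 68.7 and 96.1 CPM and 4.499, 4.41 and 8.46 CPM, and in BS2 and SB4 Tph1 did not pass 0.43 CPM and Crx had no count. Cplx3, Cplx4, Tph1 and Crx were thus low in the same SB2 library, and the part of pineal RNA in the complexin levels was not tested.

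**Figure D4:**
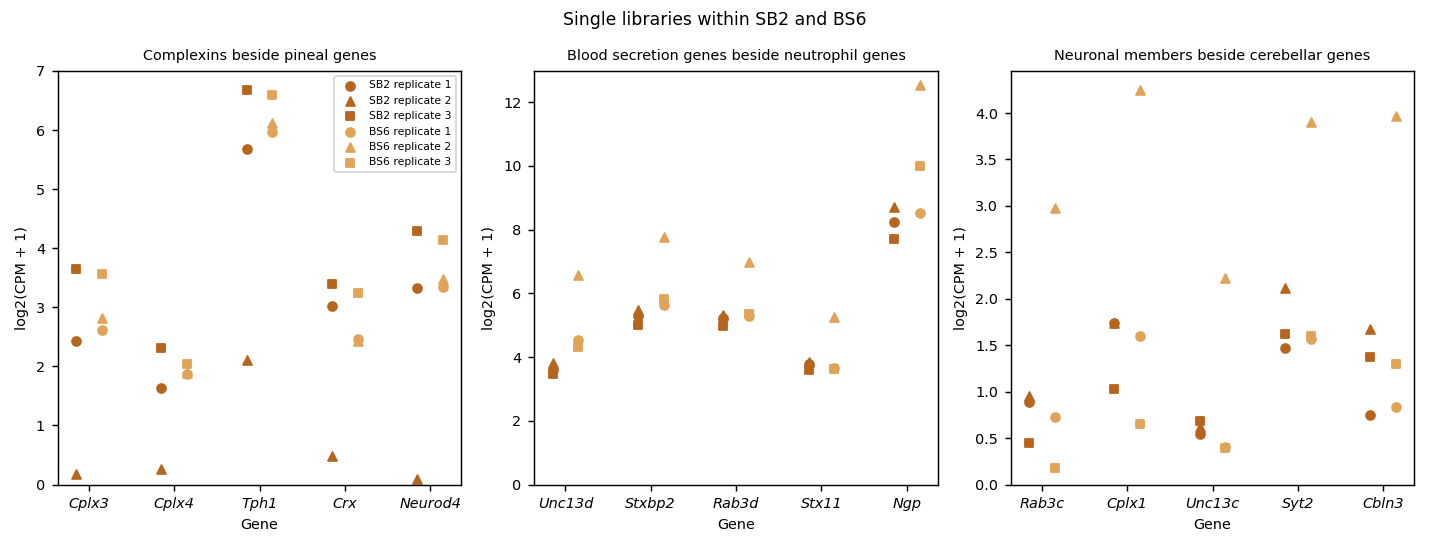
Levels as log2(CPM + 1) of chosen members beside marker genes in the SB2 (dark) and BS6 (light) libraries, with circles, triangles and squares for replicates 1, 2 and 3. The SB2 triangle is lowest for Cplx3, Cplx4, Tph1, Crx and Neurod4, and the BS6 triangle is highest for Unc13d, Stxbp2, Rab3d, Stx11 and Ngp and for Rab3c, Cplx1, Unc13c, Syt2 and Cbln3.

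Between the groups with bone transcripts, BS6 and SB2, no member was called among 66 tested, while 1.11% of all 16329 genes were called higher and 0.741% lower. At an unadjusted p under 0.05, 14 members were higher and 6 lower in BS6, which is 20 of 66 beside 29.2% of all genes. With DESeq2, Stxbp2, Rims3, Unc13d and Syt6 were called higher and Syt13 lower, and fitting all 12 libraries together called these and Syn2. Syt6 was at 4.84, 2.66 and 4.27 CPM in SB2 and 7.499, 8.58 and 9.101 CPM in BS6, without overlap, and its log2 fold change was 1.11, SE 0.26, adjusted p = 0.0594. Syt6 was also the member called when BS6 replicate 2 was left out (log2 fold change 1.08, adjusted p = 0.0268). Syt13 was at 30.8, 51.6 and 41.3 CPM in SB2 and 21.8, 12.7 and 23.2 CPM in BS6, again without overlap, at -1.08, SE 0.28, adjusted p = 0.0723. These genes were singled out after their values were seen. Unc13d had the largest log2 fold change, 2.01, with a 95% interval of 0.43 to 3.59, and this size rested on BS6 replicate 2, at 94.5 CPM against 22.0 and 19.1 CPM in the other BS6 libraries. Without that library it was 0.86, with an interval of 0.50 to 1.21 and an adjusted p of 0.00824, below the fold threshold, and that of Stxbp2 was 0.49 (adjusted p = 0.0485). Intervals lay within a log2 fold change of 1 on either side of 0 for 32 of the 66 members.

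Between the groups with brain transcripts, SB4 and BS2, none of 67 members was called by edgeR or by DESeq2, against 0.086% of 16278 genes called higher and 0.0614% lower. At an unadjusted p under 0.05, 13 members were higher and 1 lower in SB4, which is 14 of 67 beside 11.9% of all genes. The log2 fold changes ran from -0.32 for Vamp8 to 0.56 for Sv2c, and 66 of 67 intervals lay within 1 on either side of 0. Differences below the fold threshold passed the adjusted p alone for Stxbp2 (0.49, SE 0.08, adjusted p = 0.00154), Rims3 (0.27, SE 0.05, adjusted p = 0.0117) and Vamp1 (0.29, SE 0.06, adjusted p = 0.0223). All 3 were higher in every SB4 library than in every BS2 library, Rims3 for example at 419, 471 and 420.5 CPM against 345, 361 and 367 CPM. They were picked by the test on these same libraries, so this order adds no separate support.

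Partner genes outside the symbol rule were counted in the same way. Of 22 synaptic partners, among them the vesicle protein Syp, the active zone proteins Bsn and Pclo and the release factor Cadps, 22 were called higher in SB4 than in SB2 (median 5.56) and 22 lower in BS6 than in BS2 (median -4.92). Their summed level was 7130 to 7520 CPM in the libraries with brain transcripts and 439 to 632 CPM in the others. Of 24 general fusion partners, such as the Golgi and endosome SNAREs Gosr2, Vti1b and Ykt6, 6 were called higher, 8 lower and 10 neither in SB4 against SB2 (median -0.14), and 5, 5 and 14 in BS6 against BS2 (median 0.08). Of all genes 27.8% were called higher and 28.6% lower in SB4 against SB2, and 29% and 26.5% in BS6 against BS2, so that the general fusion partners lay near the background. Nsf, the ATPase that takes used SNARE complexes apart in all cells, belonged to this list. It was at 82.3, 68.5 and 83.5 CPM in SB2 and 63.3, 74.96 and 63.4 CPM in BS6, against 818, 803 and 865 CPM in BS2 and 855, 942 and 846 CPM in SB4. Between BS6 and SB2, 1 of 20 synaptic partners tested was called, higher in BS6, and none of 24 general fusion partners. Of all 16329 genes tested there, 1.11% were called higher and 0.741% lower. Between SB4 and BS2 the only partner called was Rph3a, an effector of Rab3 on synaptic vesicles. It was at 517, 516 and 552 CPM in BS2 and 10.99, 12.5 and 13.1 CPM in SB4, although its partner Rab3a did not differ by more than a log2 fold change of 0.17 at the upper end of its interval.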

How the data were processed

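The authors isolated polyadenylated mRNA from brain and skull tissue holding the injured and surrounding regions, sequenced it as read pairs, cleaned the reads with fastp and mapped them with HISAT2 2.1.0 to mm10, per the labels and the study's methods. The deposited values are whole-number counts per gene symbol for 12 libraries. The counting program, its annotation, its use of strand and whether batch adjustment preceded the table are not given in the sources used here, so reads of overlapping or near-identical genes may be split in unknown ways. The 12 columns were matched to samples by name.

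From these counts, genes were kept by edgeR's filterByExpr (minimum count 10), scaled by TMM and tested with edgeR 4.0.16 quasi-likelihood fits (R 4.3.3), each on the 6 libraries compared, with Benjamini-Hochberg adjustment over all genes tested. Calls needed adjusted p below 0.05 with more than 1 log2 unit of change in either direction, as the study asked of DESeq2. CPM were counts divided by TMM-scaled library sizes. Ratios of 7 paralog pairs used a pseudocount of 0.1 CPM and exact permutation tests (SciPy 1.17.1). Count ratios of low genes carry exact 95% intervals on counts pooled over 3 libraries, which leave out the spread between libraries. Scripts were tested on simulated data. The members, classes, pairs and partner lists were chosen with earlier results of these data known. Of the 71 members, 2 enter the counts, medians and sums over a class but are not reported here by name, nor are ratios with them. Values are printed in every library for both genes of each pair and for Stx2, Stx4a, Stxbp2 and Stxbp3, and by name for members not called or called against their class; those called by an alternative and Syt6, Syt8, Syt13, Syt15, Stx11, Syn1, Rph3a and Nsf were named after their values were seen, as were the pineal and cerebellar genes. Coordinates and exon lengths came from GENCODE M21 (mm10) and promoter windows from RefSeq GRCm38.p6. Alternatives were DESeq2 1.42.0, RLE factors, total counts, other filters, all 12 libraries in 1 fit, a replicate block, a pseudocount of 1, adjusted p alone and leaving out each library. Replicate numbers are shared by the groups, but deviations of same-numbered libraries correlated at only -0.116 to 0.086, so they were not taken as pairs.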

Additional observations from a re-analysis of the deposited data

Results flagged for a closer look

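The changes over time differed between the libraries labelled SB and those labelled BS for 17 of 18 genes, those of the paralog pairs with Stx2, Stx4a, Stxbp2 and Stxbp3, by edgeR's test of the difference itself over all 12 libraries (SB4 minus SB2, less BS6 minus BS2, in log2 units). The neuronal genes, with Syt11 and Stx3 among the widely expressed, had the higher change in SB: Syt1 15.55, Snap25 14.24, Syt11 11.77, Unc13a 10.95, Rab3a 9.86, Stx1a 8.32, Vamp1 6.17, Vamp2 5.41 and Stx3 2.86. The remaining widely expressed genes had the lower change: Vamp8 -8.28, Unc13d -7.34, Rab3d -4.24, Snap23 -4.02, Vamp3 -3.43, Stxbp3 -2.86, Stx2 -2.68 and Stx4a -2.50. Stxbp2 was the gene that this test did not call (-1.33, SE 0.66, adjusted p = 0.0808). The same test called 35.8% of all 18068 genes higher and 37.8% lower, so calls were common among all genes too. Since SB2 and BS2 carry transcripts of the other tissue than their labels name, these differences are also differences between libraries with brain and with bone transcripts, and both cannot be told apart.

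The paralog ratios moved in opposite directions in every library of the later groups relative to every library of the earlier groups. The differences between both changes, in log2 units, were not tested. They were Snap25 to Snap23 18.56, Vamp2 to Vamp3 8.83, Vamp1 to Vamp8 14.41, Stx1a to Stx3 5.43, Unc13a to Unc13d 17.83, Rab3a to Rab3d 13.88 and Syt1 to Syt11 4.17.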

How the results depend on the processing

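For 18 genes, those of the paralog pairs with Stx2, Stx4a, Stxbp2 and Stxbp3, and the 7 paralog ratios, no direction reversed over time, in SB4 against SB2 or in BS6 against BS2, under the alternatives run. In BS6 against SB2, 11 of 66 members changed sign without BS6 replicate 2, none of them called with or without it, among them Cplx1 (1.88 to -0.54), Rab3c (1.86 to -0.86), Syt2 (1.35 to -0.24), Rims4 (0.25 to -1.20) and Syt7 (0.56 to -0.39). The counts of members called in SB4 against SB2 (43 higher, 13 lower) and in BS6 against BS2 (15 and 44) stayed within 1.5 times of these under every alternative, the lowest being 38 and 11, and 12 and 34, where at least 10 counts were asked of every library. For BS6 against SB2, where no member was called, DESeq2 called 4 higher and 1 lower, a fit of all 12 libraries called 5 higher and 1 lower, and adjusted p alone called 1 higher and 1 lower. Leaving out single libraries gave 0 to 1 higher there, the 1 being Syt6 without BS6 replicate 2, and leaving out BS6 replicate 2 and SB2 replicate 2 together, an alternative chosen after seeing the data, gave 0. For SB4 against BS2, adjusted p alone called 3 members higher. The cause of these shifts was not tested, beyond the dropped fold threshold for adjusted p alone. With the replicate block, 43 members were higher and 13 lower in SB4 against SB2, 14 higher and 44 lower in BS6 against BS2, and 0 in the other comparisons, and Stxbp2 in BS6 against BS2 was not called (1.32, adjusted p = 0.0519). Levels near 3 counts, which is 0.163 to 0.218 CPM in these libraries, are limited by depth.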

Other observations

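Markers of other cell types give the setting of these levels, as sums over the listed genes found in the table. Oligodendrocyte markers (8 found) summed to 173 to 274 CPM in SB2 and 177 to 409 CPM in BS6, against 2810 to 3120 CPM in BS2 and 3080 to 4100 CPM in SB4. Astrocyte markers (8 found) summed to 766 to 883 and 513 to 759 CPM, against 5280 to 5780 and 5310 to 5590 CPM. The gap junction gene Gja1 ran the other way, with means of 701 CPM in SB2 and 428 CPM in BS6 (176 CPM in BS6 replicate 2) against 184 CPM in BS2 and 151 CPM in SB4. Osteoblast and osteocyte markers (8 found) summed to 36900 to 42000 CPM in SB2 and 19200 to 79500 CPM in BS6, and to at most 34.6 CPM elsewhere. Mast cell and basophil markers (6 found), T and NK cell markers (3 found) and skeletal muscle markers (6 found) reached 242, 13.3 and 2590 CPM in the libraries with bone transcripts, and at most 1.34, 1.35 and 11.3 CPM in those with brain transcripts. In the libraries with bone transcripts, pineal and photoreceptor genes (13 found) summed to 39.0 to 217 CPM, the lowest sum being that of an SB2 library. Cerebellar neuron genes (13 found) summed to 242 to 307 CPM in SB2 and BS6 and 199 to 274 CPM in SB4 and BS2. These sums hold genes that ran in opposite directions: Zic1 and Zic2 were at means of 195.4 to 195.5 and 49.1 to 56.1 CPM in SB2 and BS6 against 6.00 to 9.19 and 7.98 to 9.17 CPM in SB4 and BS2, and Calb1 at 0.667 and 6.81 CPM against 181 and 214 CPM.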
